A study of Mus musculus with 12 samples.

Results

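Interleukin-6 (IL-6) and its relatives signal through a small set of cytokine receptors, the transcription factor STAT3 and inhibitors that STAT proteins switch on. The 10 genes described here were chosen by name, with earlier results of these data known. They are the receptor chains Il6ra, Il6st, Lifr, Osmr and Il1r1, the transcription factor gene Stat3, and the feedback inhibitor genes Socs1, Socs3, Socs2 and Cish. Each had 1 entry among the 55401 genes of the count table, and all 10 passed the filter on low counts that left 17585 genes for testing.

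RNA of whole liver was sequenced in 12 libraries from male mice aged 7 to 10 weeks, 3 in each of 4 groups. FBXL5ΔDC mice (Cd11c-Cre/Fbxl5F/F) carry loxP-flanked Fbxl5 alleles and Cre recombinase driven by the Cd11c promoter. That promoter marks dendritic cells first of all, but some macrophages and other myeloid cells use it too. Control mice (Fbxl5F/F) carry the same flanked alleles without Cre, so the flanked alleles are common to all groups. FBXL5 is the iron-sensing part of a ubiquitin ligase that removes iron regulatory proteins. The treated groups, FBXL5ΔDC and control at 6 h, received acetaminophen (APAP) by intraperitoneal injection after a fast of 16 h and were fed again straight after it. Doses of 300 and 500 mg/kg are both named in the protocol, and the one given to these mice is not stated. The untreated groups, FBXL5ΔDC and control at 0 h, had no drug, and whether they were fasted was not stated, so drug and fasting cannot be told apart in any comparison of 6 h with 0 h. The labels number the samples within a group but do not say how the animals were related, so p-values measure only the spread between these samples.

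In the pathway, IL-6 binds its receptor chain IL-6Rα and the pair engages gp130, which recruits JAK kinases that phosphorylate STAT3. Leukemia inhibitory factor and oncostatin M use the same gp130 together with a second chain, LIFR or OSMR, while interleukin-1 acts on the unrelated receptor IL1R1 and through NF-κB. In liver, STAT3 drives the acute-phase response and takes part in regeneration, and it switches on Socs3, whose product binds gp130 and JAKs and dampens the signal. SOCS1 blocks JAKs with a preference for interferon signals, and SOCS2 and CISH are best known as feedback inhibitors of growth hormone and other STAT5 signals.

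Promoters of 3 of the inhibitor genes are shown because Socs3 and Socs1 rose in both genotypes while Cish was called in control livers alone, and because STAT dimers bind a palindrome, TTCNNNGAA, that reads the same on both strands. Each sequence runs from 250 bases before to 20 bases after the RefSeq transcript start on GRCm38.p6, 5′ to 3′ on the gene's strand, with matches to the palindrome in capitals. The Socs3 window is chr11:117969347-117969616 on the minus strand, the Cish window is chr9:107296409-107296678 on the plus strand, and the Socs1 window is chr16:10785517-10785786 on the minus strand.
Socs3: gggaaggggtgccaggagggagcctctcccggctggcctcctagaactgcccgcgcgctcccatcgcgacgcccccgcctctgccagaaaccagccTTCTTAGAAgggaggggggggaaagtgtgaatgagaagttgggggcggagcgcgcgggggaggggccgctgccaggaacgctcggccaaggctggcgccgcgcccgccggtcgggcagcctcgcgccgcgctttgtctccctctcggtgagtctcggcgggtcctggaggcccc
Cish: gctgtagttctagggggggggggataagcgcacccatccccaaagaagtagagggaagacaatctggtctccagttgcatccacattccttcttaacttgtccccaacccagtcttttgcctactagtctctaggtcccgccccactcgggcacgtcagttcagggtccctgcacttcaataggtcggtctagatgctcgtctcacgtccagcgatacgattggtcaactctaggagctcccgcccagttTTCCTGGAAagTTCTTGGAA
Socs1: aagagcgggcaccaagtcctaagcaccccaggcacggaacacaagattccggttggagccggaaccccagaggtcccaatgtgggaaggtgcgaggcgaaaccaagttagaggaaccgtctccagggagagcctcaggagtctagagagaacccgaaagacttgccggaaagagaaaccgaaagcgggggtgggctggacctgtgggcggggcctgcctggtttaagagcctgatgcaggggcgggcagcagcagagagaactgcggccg
The Socs3 window held 1 match, TTCTTAGAA, at bases -154 to -146 counted from the start, which is base 1. The annotated Socs3 gene reaches further upstream, to chr11:117970047. The match thus lay before this RefSeq start but within the span of the annotated gene. The Cish window held 2 matches, TTCCTGGAA at bases 1 to 9 and TTCTTGGAA at bases 12 to 20, so both lay just inside this annotated transcript, and another annotated start of Cish lies further upstream. The Socs1 window held none. A match of these letters is a description and not a measured binding site. Windows of 300 bases, with 50 bases after the start, were available for 9 of the 10 genes, 11 windows in all, and 9 of the 11 had no match. Among 32851 such windows of mouse genes, 8.3% held at least 1 match and 0.457% held 2 or more.

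One library stood apart from its own group. On the first principal component, which held 39.8% of the variance of log2 abundance, the FBXL5ΔDC livers at 6 h lay at 97.7, 107.4 and 103.6, the control livers at 6 h at -9.46, -8.18 and 86.8, and the 6 untreated livers between -67.0 and -57.5. Control 6 h replicate 3 thus lay near the treated FBXL5ΔDC livers. Differences that use it are given with and without it for the 10 genes and for many, though not all, of the other named genes. On this component it lay apart from the other control livers at 6 h, and whether its label is right was not tested. Every value of the control group at 6 h and every genotype difference at 6 h depends on that label. The library was singled out by these same data, as the control liver nearest to the treated FBXL5ΔDC livers. Leaving it out tends to widen genotype differences at 6 h by that choice alone, and leaves 2 control livers at 6 h. Values without it are therefore no independent support for such a difference. Total counts ran from 67173096 to 72512319 per library. Mitochondrial genes held 9.19 ± 0.245% of counts in FBXL5ΔDC livers and 6.60 ± 0.390% in control livers at 6 h, and 6.54 ± 0.270% and 6.34 ± 0.886% in FBXL5ΔDC and control livers at 0 h (SD, n = 3 each). Fbxl5 itself was at 21.4, 21.8 and 12.5 CPM in FBXL5ΔDC livers and 13.3, 19.2 and 15.0 CPM in control livers at 6 h, where CPM are counts scaled to a common library size with TMM factors. At 0 h it was at 10.3, 19.8 and 21.4 CPM in FBXL5ΔDC livers and 20.7, 22.0 and 17.6 CPM in control livers. Neither genotype difference passed the test (edgeR adjusted p = 0.672 at 6 h and 1 at 0 h), so whole-liver totals do not check the deletion in the rare Cd11c-expressing cells. Genotypes are therefore taken from the labels alone. Hepatocyte markers were abundant in all 12 libraries, with a summed level of at least 62297 CPM over 5 genes.

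After acetaminophen, 7 of the 10 genes were higher in FBXL5ΔDC livers at 6 h than in FBXL5ΔDC livers at 0 h, with Socs3, Socs1, Osmr and Il1r1 rising 9.41-fold to 14.9-fold, and none was lower. Those counts stand against 15.0% of all tested genes called higher and 15.1% called lower. In control livers 5 genes were higher at 6 h than at 0 h, Il6st, Stat3, Socs1, Socs3 and Cish, and none was lower, against 6.36% of all tested genes called higher and 4.20% called lower. Between genotypes at 6 h, only Socs3 passed the test, higher in FBXL5ΔDC livers, where 1.35% of all tested genes were called higher and 4.51% lower. At 0 h no gene of the 10 differed between genotypes, and 0% of all tested genes were called. A gene is called when its edgeR adjusted p (Benjamini-Hochberg over all 17585 genes of the comparison) is below 0.05. With no filter on low counts, none of the 5 calls in control livers was made, nor that of Il6ra in FBXL5ΔDC livers (edgeR adjusted p = 0.0508 to 0.0681). The call of Socs3 between genotypes at 6 h was not made in a fit on the treated groups alone (edgeR adjusted p = 0.136). The genotype and response comparisons share libraries and are therefore not independent of each other. In whole tissue, a change in the share of a cell type and a change of RNA per cell cannot be told apart.

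**Figure D1:**
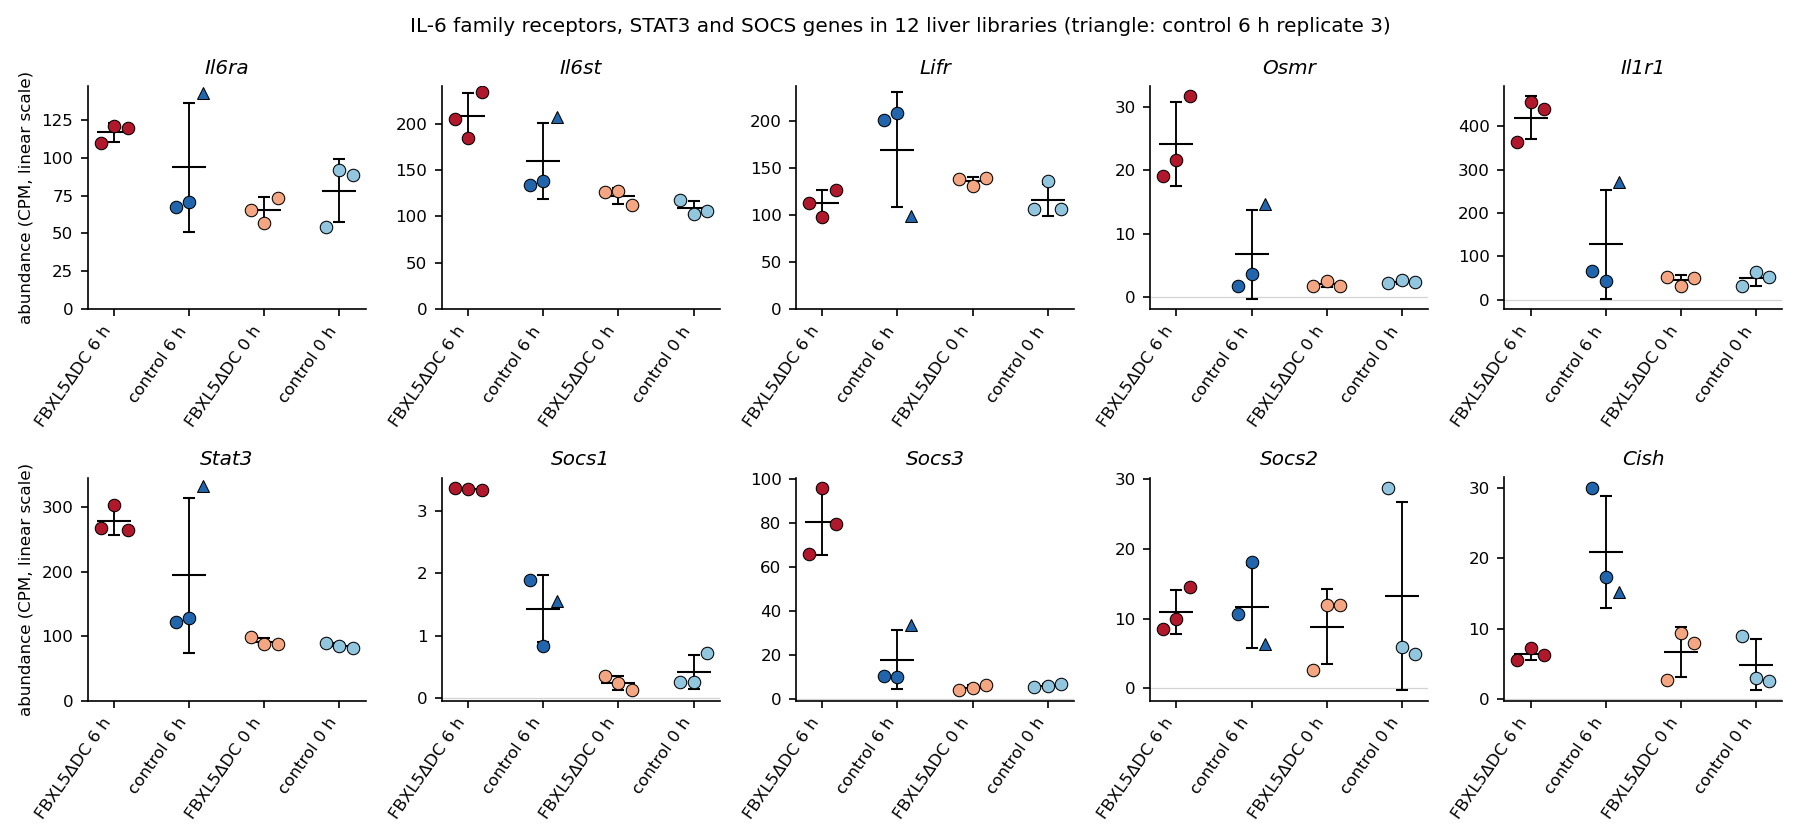
Abundance of the 10 genes in CPM on a linear axis, 1 panel per gene and 1 point per library, with the bar at the group mean and whiskers of 1 SD (n = 3); the triangle is control 6 h replicate 3. For Socs3 the 3 treated FBXL5ΔDC livers lie between 65.9 and 96.0 CPM, above every other library, and for Il1r1 and Osmr the triangle lies far above the other control livers.

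Il6ra (ENSMUSG00000027947.11, chr3:89864059-89913196, minus strand) encodes the IL-6-binding chain. It was at 110, 121 and 120 CPM in FBXL5ΔDC livers at 6 h, against 65.7, 56.8 and 73.7 CPM in FBXL5ΔDC livers at 0 h. Control livers had 67.3, 70.6 and 143 CPM at 6 h, against 54.4, 92.1 and 88.7 CPM at 0 h. Every treated FBXL5ΔDC liver thus lay above every untreated one. Among the treated control livers, replicate 3 lay above the untreated control livers and the others lay within their range. The gene rose 1.79-fold in FBXL5ΔDC livers (log2 0.84, SE 0.27, edgeR adjusted p = 0.0351). In control livers the log2 difference was 0.26 (SE 0.27, edgeR adjusted p = 0.635), and it was -0.18 without control 6 h replicate 3 (edgeR adjusted p = 0.665). The call in FBXL5ΔDC livers was lost when any 1 of the 6 FBXL5ΔDC libraries was left out (edgeR adjusted p = 0.0594 to 0.120), with log2 differences of 0.74 to 0.93. Of its exon bases, 2.8% are shared with Gm42809 on the opposite strand, which had 46 to 140 counts in FBXL5ΔDC livers at 6 h and at most 42 in any other library, against a mean of 7516 counts for Il6ra in FBXL5ΔDC livers at 6 h.

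Il6st (ENSMUSG00000021756.12, chr13:112464070-112510086, plus strand) encodes gp130, the chain shared by the whole family. It was at 205, 185 and 234 CPM in FBXL5ΔDC livers at 6 h, against 126, 127 and 112 CPM in FBXL5ΔDC livers at 0 h. Control livers had 134, 138 and 207 CPM at 6 h, against 118, 103 and 106 CPM at 0 h. In both genotypes the treated libraries lay above all the untreated ones, and the highest control library was replicate 3. The gene rose 1.71-fold in FBXL5ΔDC livers (log2 0.77, SE 0.16, edgeR adjusted p = 0.00388) and 1.47-fold in control livers (log2 0.55, SE 0.16, edgeR adjusted p = 0.0486). The call in control livers lay just inside the threshold and was lost in 10 of the 12 fits that left out 1 library (edgeR adjusted p up to 0.169), including the one without control 6 h replicate 3 (log2 0.32, edgeR adjusted p = 0.129).

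Lifr (ENSMUSG00000054263.12, chr15:7090614-7197489, plus strand) encodes the chain that pairs with gp130 for leukemia inhibitory factor. It was at 113, 98.1 and 127 CPM in FBXL5ΔDC livers at 6 h, against 138, 131 and 140 CPM in FBXL5ΔDC livers at 0 h. Control livers had 202, 208 and 99.2 CPM at 6 h, against 107, 136 and 106 CPM at 0 h. The treated FBXL5ΔDC livers lay below all the untreated ones of that genotype, and 2 of the treated control livers lay above all their untreated ones while replicate 3 lay below them. Neither response passed the test, with log2 differences of -0.28 in FBXL5ΔDC livers (SE 0.23, edgeR adjusted p = 0.398) and 0.54 in control livers (SE 0.23, edgeR adjusted p = 0.153). Without control 6 h replicate 3, Lifr was 1.76-fold higher in control livers at 6 h than at 0 h (log2 0.82, edgeR adjusted p = 0.00180).

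Osmr (ENSMUSG00000022146.12, chr15:6813577-6874969, minus strand) encodes the chain that pairs with gp130 for oncostatin M. It was at 19.1, 21.6 and 31.7 CPM in FBXL5ΔDC livers at 6 h, against 1.77, 2.54 and 1.65 CPM in FBXL5ΔDC livers at 0 h. Control livers had 1.70, 3.66 and 14.7 CPM at 6 h, against 2.12, 2.66 and 2.35 CPM at 0 h. The treated FBXL5ΔDC livers were all far above the rest, and of the treated control livers 1 lay below, 1 just above and 1 well above the untreated ones. The gene rose 12.1-fold in FBXL5ΔDC livers (log2 3.60, SE 0.65, edgeR adjusted p = 0.00219). In control livers the log2 difference was 1.49 (SE 0.60, edgeR adjusted p = 0.151) with all libraries and 0.17 without replicate 3 at 6 h (edgeR adjusted p = 0.850). Without control 6 h replicate 1, the lowest treated library, Osmr was called in control livers (log2 1.94, edgeR adjusted p = 0.0205).

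Il1r1 (ENSMUSG00000026072.12, chr1:40225080-40317257, plus strand) encodes the signalling receptor of interleukin-1 and is the 1 receptor of the 10 outside the gp130 family. It was at 363, 456 and 440 CPM in FBXL5ΔDC livers at 6 h, against 52.9, 31.9 and 48.8 CPM in FBXL5ΔDC livers at 0 h. Control livers had 66.0, 44.1 and 271 CPM at 6 h, against 31.3, 64.5 and 52.2 CPM at 0 h. Treated FBXL5ΔDC livers stood above all others, control replicate 3 came next, and the other treated control livers were at about the untreated level. The gene rose 9.41-fold in FBXL5ΔDC livers (log2 3.23, SE 0.63, edgeR adjusted p = 0.00385). In control livers the log2 difference was 1.37 (SE 0.58, edgeR adjusted p = 0.180) with all libraries and 0.16 without replicate 3 at 6 h (edgeR adjusted p = 0.863).

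Stat3 (ENSMUSG00000004040.16, chr11:100885098-100939540, minus strand) encodes the transcription factor of the pathway, whose own gene is among its targets. It was at 268, 303 and 264 CPM in FBXL5ΔDC livers at 6 h, against 98.0, 87.3 and 88.4 CPM in FBXL5ΔDC livers at 0 h. Control livers had 122, 127 and 333 CPM at 6 h, against 89.2, 84.5 and 81.4 CPM at 0 h. All treated libraries lay above all untreated ones, and the highest value of the 12 was that of control replicate 3. The gene rose 3.05-fold in FBXL5ΔDC livers (log2 1.61, SE 0.31, edgeR adjusted p = 0.00256) and 2.28-fold in control livers (log2 1.19, SE 0.31, edgeR adjusted p = 0.0299). Without control 6 h replicate 3, the rise in control livers was 1.47-fold and was called (log2 0.55, edgeR adjusted p = 0.00551). It was not called without any 1 of the control livers at 0 h or without FBXL5ΔDC 6 h replicate 3 (edgeR adjusted p = 0.0503 to 0.102). With Stat5a on the opposite strand it shares 0.756% of its exon bases.

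Socs1 (ENSMUSG00000038037.5, chr16:10782240-10785536, minus strand) encodes a JAK inhibitor and had the lowest mean CPM of the 10 genes in each group, though not the lowest level per length of annotated exon in FBXL5ΔDC livers at 6 h. It was at 3.38, 3.36 and 3.34 CPM in FBXL5ΔDC livers at 6 h, against 0.343, 0.235 and 0.119 CPM in FBXL5ΔDC livers at 0 h. Control livers had 1.90, 0.841 and 1.55 CPM at 6 h, against 0.252, 0.259 and 0.725 CPM at 0 h. The treated libraries lay above the untreated ones in both genotypes, and the 3 treated FBXL5ΔDC livers were close to each other. Counts were 8 to 24 per library in FBXL5ΔDC livers at 0 h and 19 to 54 in control livers at 0 h, so the lower side of these folds rests on few fragments. Socs1 rose 14.3-fold in FBXL5ΔDC livers (log2 3.84, SE 0.55, edgeR adjusted p = 4.51e-04) and 3.45-fold in control livers (log2 1.79, SE 0.51, edgeR adjusted p = 0.0417). The call in control livers was lost in 8 of the 12 fits that left out 1 library (edgeR adjusted p up to 0.159). Without control 0 h replicate 3, the highest of the untreated libraries, the log2 difference was 2.47 (edgeR adjusted p = 0.0212), and without control 6 h replicate 3 it was 1.73 (edgeR adjusted p = 0.0680).

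Socs3 (ENSMUSG00000053113.3, chr11:117966079-117970047, minus strand), the gp130 inhibitor whose promoter is printed above with its single match, had, with Socs1, the largest rise of the 10 in FBXL5ΔDC livers. It was at 65.9, 96.0 and 79.5 CPM in FBXL5ΔDC livers at 6 h, against 4.22, 5.22 and 6.75 CPM in FBXL5ΔDC livers at 0 h. Control livers had 10.6, 10.1 and 33.6 CPM at 6 h, against 5.53, 5.90 and 6.86 CPM at 0 h. All treated livers exceeded all untreated ones, and every treated FBXL5ΔDC liver exceeded every treated control liver, replicate 3 included. The gene rose 14.9-fold in FBXL5ΔDC livers (log2 3.90, SE 0.45, edgeR adjusted p = 1.95e-04) and 2.97-fold in control livers (log2 1.57, SE 0.41, edgeR adjusted p = 0.0337). Without control 6 h replicate 3, the rise in control livers was 1.69-fold (log2 0.76, edgeR adjusted p = 0.0237). The control call was lost without any 1 of the control livers at 0 h, without FBXL5ΔDC 0 h replicate 2 or without FBXL5ΔDC 6 h replicate 3 (edgeR adjusted p = 0.0511 to 0.118).

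Socs2 (ENSMUSG00000020027.18, chr10:95385362-95417180, minus strand), an inhibitor of growth hormone signalling, varied within every group. It was at 8.48, 9.96 and 14.5 CPM in FBXL5ΔDC livers at 6 h, against 2.57, 11.9 and 11.9 CPM in FBXL5ΔDC livers at 0 h. Control livers had 10.7, 18.1 and 6.32 CPM at 6 h, against 28.8, 5.88 and 4.93 CPM at 0 h. The groups overlapped throughout, and single libraries set the group means. Log2 differences were 0.32 in FBXL5ΔDC livers (SE 0.74, edgeR adjusted p = 0.794) and -0.17 in control livers (SE 0.74, edgeR adjusted p = 0.928), or 0.12 in control livers without replicate 3 at 6 h (edgeR adjusted p = 0.974), and changes of about 1 log2 unit in either direction would not have been detectable with this spread.

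Cish (ENSMUSG00000032578.7, chr9:107296026-107302784, plus strand) encodes the founding member of the SOCS family, a STAT5-induced inhibitor. It was at 5.67, 7.23 and 6.27 CPM in FBXL5ΔDC livers at 6 h, against 2.71, 9.40 and 7.98 CPM in FBXL5ΔDC livers at 0 h. Control livers had 30.0, 17.4 and 15.3 CPM at 6 h, against 9.07, 3.003 and 2.63 CPM at 0 h. Here the treated control livers, replicate 3 included, were above every other library, and the treated FBXL5ΔDC livers lay within the range of the untreated ones. Cish rose 4.26-fold in control livers (log2 2.09, SE 0.53, edgeR adjusted p = 0.0307), and the log2 difference in FBXL5ΔDC livers was -0.07 (SE 0.52, edgeR adjusted p = 0.941). The control call was lost without control 0 h replicate 2 or 3 or control 6 h replicate 1 or 3 (edgeR adjusted p = 0.0551 to 0.121), and without control 0 h replicate 1 the log2 difference was 2.89 (edgeR adjusted p = 0.00789). Of the exon bases of Cish, 11.5% are shared with Gm17040 and Gm17041 on the opposite strand. These had at most 23 and 0 counts in any library, against 190 counts or more for Cish.

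**Figure D2:**
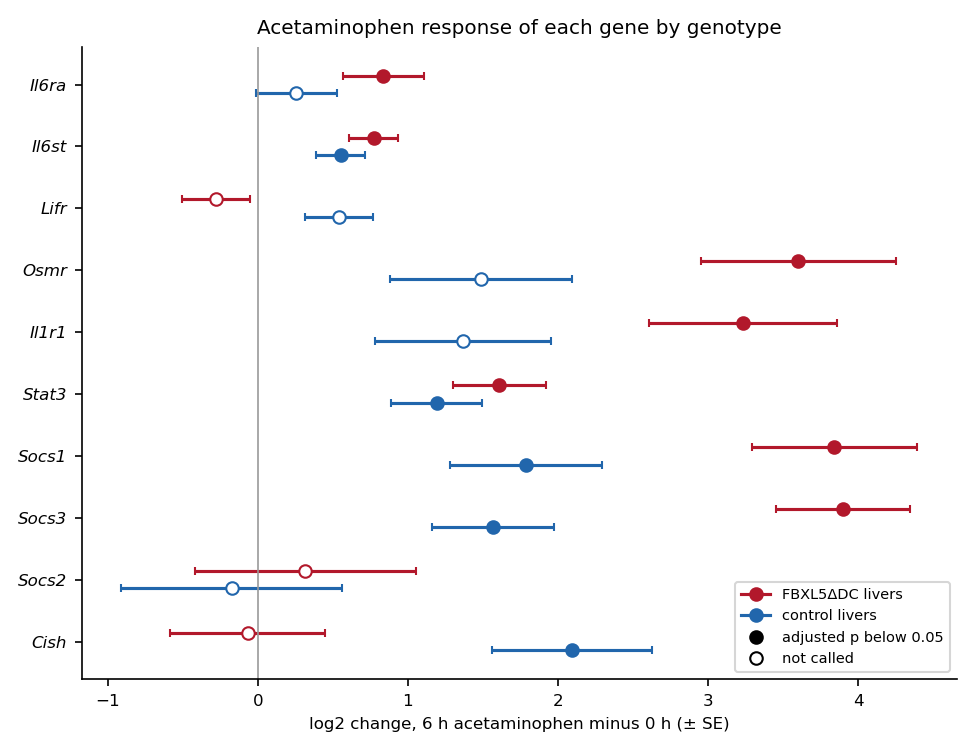
Log2 change from 0 h to 6 h after acetaminophen for each gene, with whiskers of 1 SE from the edgeR fit, in FBXL5ΔDC livers (red, upper) and control livers (blue, lower); filled points have an adjusted p below 0.05. Socs3, Socs1, Osmr and Il1r1 lie between 3.23 and 3.90 in FBXL5ΔDC livers, and Cish lies at 2.09 in control livers and -0.07 in FBXL5ΔDC livers.

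At 6 h the genotypes were compared directly. By their labels they differ in the Cre transgene and in the deletion it drives, and these cannot be told apart here. Socs3 was 4.45-fold higher in FBXL5ΔDC livers than in control livers (log2 2.15, SE 0.41, edgeR adjusted p = 0.0160). The libraries of the genotypes did not overlap for 5 of the 10 genes, against 21.0% of all tested genes: Socs3, Osmr, Il1r1 and Socs1 were above and Cish was below in every FBXL5ΔDC liver. Of these, the log2 difference was 1.85 for Osmr (SE 0.60, edgeR adjusted p = 0.0964), 1.72 for Il1r1 (SE 0.59, edgeR adjusted p = 0.117) and 1.23 for Socs1 (SE 0.49, edgeR adjusted p = 0.153). For Cish it was -1.71 (SE 0.53, edgeR adjusted p = 0.0810). The other 5 genes overlapped, with log2 differences of 0.52 for Stat3, 0.38 for Il6st, 0.32 for Il6ra, -0.09 for Socs2 and -0.59 for Lifr (edgeR adjusted p = 0.139 to 0.962). The call of Socs3 was lost without control 6 h replicate 1 (edgeR adjusted p = 0.0593), control 6 h replicate 2 (edgeR adjusted p = 0.0524) or FBXL5ΔDC 6 h replicate 2 (edgeR adjusted p = 0.0590), with log2 differences of 1.86 to 2.01, and Cish was called without control 0 h replicate 1 (log2 -1.71, edgeR adjusted p = 0.0381).

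Leaving out control 6 h replicate 3 gave 7 called genes of the 10 in this comparison, where 4249 of 18464 tested genes were called. Socs3 was then 7.78-fold higher in FBXL5ΔDC livers (log2 2.96, edgeR adjusted p = 1.11e-06), Osmr 8.98-fold (log2 3.17, edgeR adjusted p = 2.65e-05) and Il1r1 7.61-fold (log2 2.93, edgeR adjusted p = 2.02e-04). Stat3 was 2.23-fold higher (log2 1.16, edgeR adjusted p = 1.13e-05), Il6ra 1.69-fold (log2 0.76, edgeR adjusted p = 0.00975) and Il6st 1.53-fold (log2 0.61, edgeR adjusted p = 0.00279). Lifr was lower, with a log2 difference of -0.87 (edgeR adjusted p = 3.86e-04). Socs1 (log2 1.29), Cish (log2 -1.89) and Socs2 (log2 -0.39) were not called (edgeR adjusted p = 0.122, 0.0561 and 0.821). The labels themselves give no reason to leave the library out. It was singled out by these same data, so the p-values and the number of calls without it are no independent support.

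**Figure D3:**
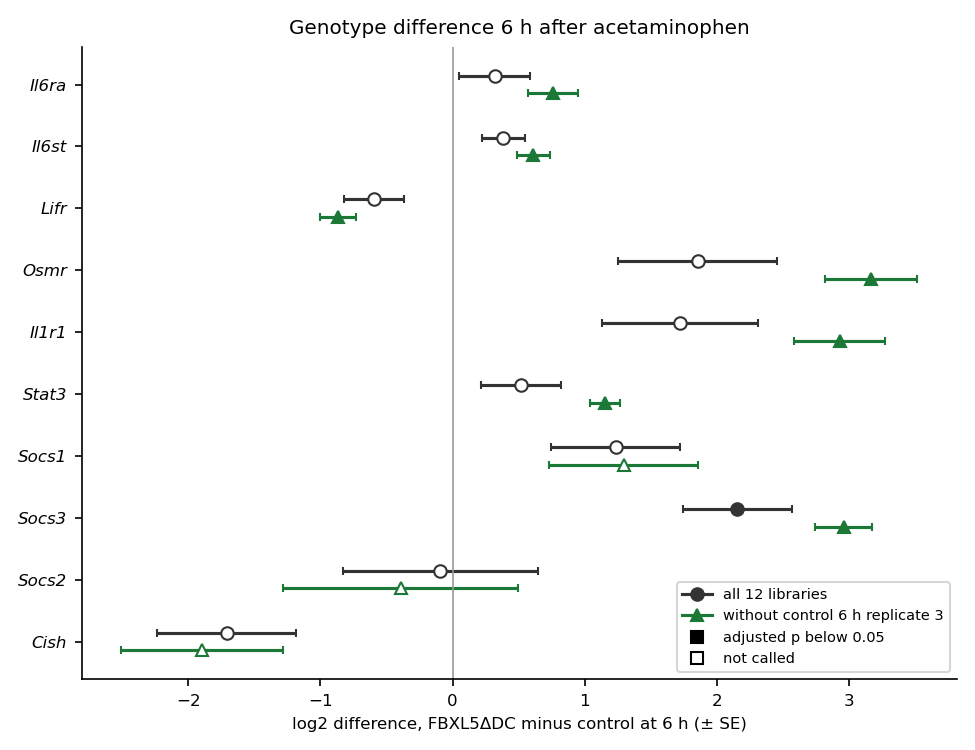
Log2 difference between FBXL5ΔDC and control livers 6 h after acetaminophen, with whiskers of 1 SE from the edgeR fit, from all 12 libraries (circles) and without control 6 h replicate 3 (triangles); filled points have an adjusted p below 0.05. Socs3 is filled in both, and Osmr, Il1r1, Stat3, Il6st, Il6ra and Lifr are filled only without that library.

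How far control 6 h replicate 3 lay along the response differed between the genes. Its log2 abundance stood at 80.3% of the distance from the mean of the untreated control livers to the mean of the treated FBXL5ΔDC livers for Il1r1, at 79.4% for Osmr, at 66.5% for Socs3 and at 115% for Stat3. The other treated control livers stood at 15.3% and -3.13% for Il1r1, at -14.2% and 18.8% for Osmr, at 21.5% and 19.7% for Socs3 and at 30.7% and 34.2% for Stat3. For Socs1 replicate 3 stood at 64.5%, between the 73.7% and 36.8% of the others, and for Cish it had the lowest of the 3 values of its group but stayed above every FBXL5ΔDC liver. For Il6st it stood at 100.02%, against 32.4% and 37.1% in the others, and for Il6ra at 148%, against -29.4% and -18.1%. For Lifr the end points were too close together, at log2 CPM of 6.81 in treated FBXL5ΔDC livers and 6.85 in untreated control livers, for such a share to be read. Replicate 3 thus stood between 79.4% and 148% of the distance for Il1r1, Osmr, Il6st, Il6ra and Stat3. For Il1r1 and Osmr it still lay below every treated FBXL5ΔDC liver. For Cish it stood at 307%, against 467% and 337% in the others, so all 3 treated control livers lay past the treated FBXL5ΔDC mean.

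Whether the response differed between genotypes was tested with the interaction, the response of FBXL5ΔDC livers minus that of control livers. None of the 10 genes passed by edgeR, where 0.290% of all tested genes were called, although 6 had an unadjusted p below 0.05 and DESeq2 called 1, Socs3 (DESeq2 adjusted p = 0.00251). The interaction was 2.33 on the log2 scale for Socs3 (SE 0.57, edgeR adjusted p = 0.107), 2.11 for Osmr (SE 0.85, edgeR adjusted p = 0.291), 2.05 for Socs1 (SE 0.72, edgeR adjusted p = 0.216) and 1.87 for Il1r1 (SE 0.82, edgeR adjusted p = 0.334). It was -2.16 for Cish (SE 0.74, edgeR adjusted p = 0.216) and -0.82 for Lifr (SE 0.32, edgeR adjusted p = 0.267). Without control 6 h replicate 3, 6 genes were called where 2533 of 18464 tested genes were: Osmr (log2 3.42, edgeR adjusted p = 2.28e-04), Socs3 (log2 3.14, edgeR adjusted p = 1.25e-05), Il1r1 (log2 3.07, edgeR adjusted p = 0.00126), Stat3 (log2 1.05, edgeR adjusted p = 4.55e-04), Il6ra (log2 1.02, edgeR adjusted p = 0.0152) and Lifr (log2 -1.09, edgeR adjusted p = 0.00139). Socs1 and Cish were not called without it (log2 2.11 and -2.34, edgeR adjusted p = 0.0894 and 0.105). The 6 calls, too, rest on leaving out a library that these same data singled out. The genes called in the response of one genotype and not in the other, such as Osmr, Il1r1 and Cish, were therefore not shown to respond differently with all libraries.

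Before treatment the genotypes did not separate in any of the 10 genes. All 10 had overlapping libraries, where the groups did not overlap for 11.7% of all tested genes, none had an unadjusted p below 0.05, and log2 differences between FBXL5ΔDC and control livers at 0 h ran from -0.82 for Socs1 to 0.45 for Cish (edgeR adjusted p = 1 for each). Over the whole table edgeR called 0 genes, 465 had an unadjusted p below 0.05, and DESeq2 called 14, none of them among the 10.

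Levels of different genes were compared per length of exon, in RPKM computed here from GENCODE vM21 exon lengths. These lengths pool the exons of all annotated transcripts. For Cish they came to 6419 bases, nearly the whole span of the gene, so its level is understated if its main transcript is shorter. In FBXL5ΔDC livers at 6 h, Il1r1 was the most abundant of the 10 at 65.9 ± 7.85 RPKM, followed by Stat3 at 29.2 ± 2.24 and Socs3 at 27.8 ± 5.21 RPKM, which overlapped each other (SD, n = 3). In control livers at 6 h, Stat3 at 20.4 ± 12.6 and Il1r1 at 20.0 ± 19.7 RPKM headed the order with overlapping ranges, each carried by replicate 3, and Socs3 was at 6.26 ± 4.66 RPKM (SD, n = 3). In the other control livers at 6 h Lifr led, at 18.7 and 19.3 RPKM, against 12.8 and 13.4 RPKM for Stat3 and 10.4 and 6.93 RPKM for Il1r1. In FBXL5ΔDC livers at 0 h, Lifr led at 12.6 ± 0.456 RPKM, above Il6st at 10.99 ± 0.749 and Stat3 at 9.57 ± 0.618 RPKM, and Il1r1 was at 7.00 ± 1.75 RPKM (SD, n = 3). In control livers at 0 h the order was Lifr at 10.8 ± 1.59, Il6st at 9.82 ± 0.714, Il6ra at 9.07 ± 2.41, Stat3 at 8.92 ± 0.412 and Il1r1 at 7.75 ± 2.63 RPKM, each overlapping the next (SD, n = 3). Osmr and Socs1 were the lowest at 0 h, at 0.164 ± 0.0398 and 0.0799 ± 0.0385 RPKM in FBXL5ΔDC livers and 0.196 ± 0.0224 and 0.142 ± 0.0932 RPKM in control livers (SD, n = 3).

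Ratios of these per-length levels describe the balance within each library and do not depend on library scaling. Their size does depend on the exon lengths used, which for Cish cover nearly the whole gene, while their order across libraries does not. The level of Lifr was 6.61, 5.11 and 4.496 times that of Osmr in FBXL5ΔDC livers at 6 h, against 133, 64.0 and 7.59 times in control livers at 6 h. At 0 h it was 87.6, 57.8 and 95.1 times in FBXL5ΔDC livers and 56.7, 57.5 and 50.8 times in control livers. The receptor pair was thus most even in the treated FBXL5ΔDC livers, and control replicate 3 was the library nearest to them. The level of Socs3 was 25.8, 29.4 and 28.1 times that of Cish in FBXL5ΔDC livers at 6 h, against 0.781, 1.29 and 4.88 times in control livers at 6 h. At 0 h it was 3.45, 1.23 and 1.88 times in FBXL5ΔDC livers and 1.35, 4.36 and 5.79 times in control livers. Here replicate 3 was within the range of the untreated livers. Socs3 relative to Stat3 stood at 0.811, 1.04 and 0.992 in FBXL5ΔDC livers and at 0.285, 0.261 and 0.333 in control livers at 6 h, with untreated livers between 0.142 and 0.278. That ratio kept replicate 3 with its own group. Ratios of 3 libraries against 3 cannot give an exact two-sided p below 0.1, and no test was made.

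Most like Socs3 over the 12 libraries, by the root-mean-square difference of log2 CPM centred on each gene's mean, was Itpkc with a difference of 0.249, followed by Krt18 with 0.363 and Ifit3b with 0.364. The median over the 12284 genes searched was 1.66. Ifit3b has a near-identical neighbour copy, so its counts are uncertain. For Stat3 the nearest were Il17ra with 0.106, Dync1li1 with 0.108 and Rapgef2 with 0.111, against a median of 0.855. For Il6st they were Supt16 with 0.0952, Haus2 with 0.0968 and Wasf2 with 0.114, against a median of 0.539. These values describe likeness of profile over libraries that share treatment groups.

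Of 13 ligands of the IL-6 and IL-1 families, 9 were tested, and 1 rose and 1 fell after acetaminophen in each genotype, where 15.0% of all tested genes rose and 15.1% fell in FBXL5ΔDC livers, and 6.36% rose and 4.20% fell in control livers. These shares are the background for the response counts of every list that follows. Between genotypes at 6 h, 1.35% of all tested genes were called higher and 4.51% lower, and 0.290% were called for the interaction. Without control 6 h replicate 3, 4249 of 18464 tested genes were called between genotypes at 6 h, 2533 for the interaction and 1677 in control livers. Clcf1, which encodes cardiotrophin-like cytokine factor 1, was at 12.6, 9.81 and 20.6 CPM in FBXL5ΔDC livers at 6 h, against 0.657, 0.617 and 0.596 CPM at 0 h. It was at 0.7999, 0.643 and 8.43 CPM in control livers at 6 h, against 0.995, 0.150 and 0.766 CPM at 0 h. The gene was high in all treated FBXL5ΔDC livers and in control replicate 3 alone among the control livers. Clcf1 rose 23.0-fold in FBXL5ΔDC livers (log2 4.52, edgeR adjusted p = 0.00748), with a log2 difference of 2.36 in control livers (edgeR adjusted p = 0.148) that was 0.18 without replicate 3 at 6 h (edgeR adjusted p = 0.925). Between genotypes at 6 h the log2 difference of Clcf1 was 2.13 (edgeR adjusted p = 0.192) with all libraries and 4.31 without replicate 3, when it was called (edgeR adjusted p = 3.68e-04). Ctf1, which encodes cardiotrophin-1, fell by 0.90 on the log2 scale in FBXL5ΔDC livers (edgeR adjusted p = 0.0157) and by 1.19 in control livers (edgeR adjusted p = 0.0114). Il1a, which encodes interleukin-1α, rose 2.12-fold in control livers (edgeR adjusted p = 0.0320), with 2.52, 3.30 and 3.52 CPM at 6 h, against 1.39, 1.46 and 1.56 CPM at 0 h. That call was lost without replicate 3 at 6 h (log2 0.98, edgeR adjusted p = 0.0744). It was at 3.33, 3.40 and 2.24 CPM in FBXL5ΔDC livers at 6 h, against 2.61, 2.10 and 1.59 CPM at 0 h (log2 0.51, edgeR adjusted p = 0.206). The calls of this list were 1 in FBXL5ΔDC livers without FBXL5ΔDC 0 h replicate 1 or 2 or FBXL5ΔDC 6 h replicate 1. In control livers they were 0 without control 0 h replicate 3 and 1 without control 0 h replicate 1 or 2, control 6 h replicate 2 or 3, or FBXL5ΔDC 0 h replicate 2.

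Transcripts of the classical ligands were scarce. Il6 itself was at 0.322, 0.312 and 0.373 CPM in FBXL5ΔDC livers at 6 h and at 0 in all 3 control livers at 6 h, where a mean of 12 counts, taken as the limit of detection, corresponds to 0.160 CPM. It was also at 0 in 5 of the 6 untreated livers and at 0.103 CPM in the other. The genotype difference at 6 h did not pass the test (edgeR adjusted p = 0.0983). Lif, which encodes leukemia inhibitory factor, was at 0.430, 0.787 and 0.238 CPM in FBXL5ΔDC livers at 6 h and at 0, 0 and 0.451 CPM in control livers at 6 h, and it was at 0 in all untreated livers (edgeR adjusted p = 0.0523 for the response of FBXL5ΔDC livers). Between genotypes at 6 h, leaving out control replicate 3, Lif was called (edgeR adjusted p = 0.0455) and Il6 was not (edgeR adjusted p = 0.0910). Ligands that did not pass the filter on low counts were close to 0, and 3 are named here after their values were seen. Osm, which encodes oncostatin M, was seen in 1 of the 12 libraries, FBXL5ΔDC 6 h replicate 1, at 0.246 CPM, Il11 in none, and Il27 at no more than 0.416 CPM. Cntf, Ebi3, Il1b and Il1rn were not called in any comparison and stayed between 0 and 20.2 CPM. The median log2 difference of the 9 tested ligands was 0.73 in FBXL5ΔDC livers and 0.74 in control livers, against 0.02 and 0.03 over all genes, and the control value was 0.34 with genes that were at 0 in a whole group set at their bound.

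Among 8 other receptor chains of the gp130 and IL-1 families, 7 were tested, and 2 rose in FBXL5ΔDC livers and none in control livers. Il1r2, the decoy receptor of interleukin-1, was at 0.599, 0.787 and 0.343 CPM in FBXL5ΔDC livers at 6 h and at 0 in all 3 at 0 h (edgeR adjusted p = 0.0312), and it was at 0, 0 and 0.933 CPM in control livers at 6 h. Il27ra, the interleukin-27 receptor chain, rose 3.15-fold in FBXL5ΔDC livers (log2 1.66, edgeR adjusted p = 0.0285) at levels near 1 CPM. No chain of this list was called when any 1 of the 3 FBXL5ΔDC livers at 0 h, or FBXL5ΔDC 6 h replicate 1 or 3, was left out. Leaving out control 6 h replicate 3 gave 1 call of this list between genotypes at 6 h and 1 for the interaction, against 0 and 0. Of 18464 tested genes, 4249 and 2533 were then called. The median log2 difference of the 7 was 1.10 in FBXL5ΔDC livers and -0.14 in control livers.

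Of the 11 JAK kinase, other STAT and SHP2 genes, 3 rose and 4 fell in FBXL5ΔDC livers, and 1 rose in control livers. The kinase genes went different ways: Jak1 rose 2.56-fold (log2 1.36, edgeR adjusted p = 5.90e-04) and Jak2 rose 1.93-fold (log2 0.95, edgeR adjusted p = 0.00607), while Tyk2 fell by 0.99 on the log2 scale (edgeR adjusted p = 0.00372). In control livers Jak1 rose 1.83-fold (log2 0.87, edgeR adjusted p = 0.0178), with 121, 118 and 224 CPM at 6 h, against 76.6, 89.8 and 86.6 CPM at 0 h. The call of Jak1 in control livers was lost without any 1 of the control livers at 0 h, and without control 6 h replicate 3 the rise was 1.41-fold (log2 0.50, edgeR adjusted p = 0.00830). Without that replicate the list's calls were 2 in control livers, 1 higher and 1 lower, against 1 with all libraries. They were then 5 between genotypes at 6 h, 2 higher and 3 lower, and 4 for the interaction, against 0 and 0 with all libraries. The list's median log2 difference was -0.20 in FBXL5ΔDC livers and 0.11 in control livers.

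Of 11 other brakes on the pathway, 4 rose and 3 fell in FBXL5ΔDC livers, and 2 rose and 1 fell in control livers. Ptpn2, which encodes a phosphatase that acts on JAK1 and nuclear STATs, was at 42.6, 48.8 and 46.0 CPM in FBXL5ΔDC livers at 6 h, against 7.32, 7.29 and 6.85 CPM at 0 h. It was at 13.6, 10.2 and 24.8 CPM in control livers at 6 h, against 8.70, 7.68 and 6.38 CPM at 0 h. Treated FBXL5ΔDC livers exceeded all treated control livers, and these exceeded all untreated livers. The gene rose 6.40-fold in FBXL5ΔDC livers (log2 2.68, edgeR adjusted p = 5.88e-05) and 2.13-fold in control livers (log2 1.09, edgeR adjusted p = 0.0182), and at 6 h it was 2.83-fold higher in FBXL5ΔDC livers than in control livers (log2 1.499, edgeR adjusted p = 0.00915). Those values of Ptpn2 without control 6 h replicate 3 were 1.57-fold in control livers (edgeR adjusted p = 0.0206) and 3.83-fold between genotypes (edgeR adjusted p = 5.94e-06). Socs5, a SOCS gene that targets JAK1 and the epidermal growth factor receptor, rose 4.58-fold in FBXL5ΔDC livers (edgeR adjusted p = 0.00486) and 3.70-fold in control livers (edgeR adjusted p = 0.0259), or 2.01-fold in control livers without replicate 3 at 6 h (edgeR adjusted p = 0.0352).

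In the opposite direction, Pias3, which encodes a protein inhibitor of STAT3, was at 1.29, 1.49 and 1.56 CPM in FBXL5ΔDC livers at 6 h, against 7.40, 7.45 and 6.42 CPM at 0 h. It was at 2.86, 4.25 and 2.23 CPM in control livers at 6 h, against 5.89, 5.43 and 5.73 CPM at 0 h. Pias3 fell by 2.29 on the log2 scale in FBXL5ΔDC livers (edgeR adjusted p = 1.14e-04) and by 0.87 in control livers (edgeR adjusted p = 0.0410), and at 6 h it was lower in FBXL5ΔDC than in control livers (log2 -1.10, edgeR adjusted p = 0.0253). The log2 difference of Pias3 without control 6 h replicate 3 was -0.68 in control livers and not called (edgeR adjusted p = 0.0985), and it was -1.30 between genotypes (edgeR adjusted p = 0.00126). Pias4, named here after its values were seen, was also lower at 6 h (log2 -0.52, edgeR adjusted p = 0.0368), and the value was -0.53 without that library (edgeR adjusted p = 0.0130). Ptpn6, the phosphatase SHP1 of blood cells and epithelia, fell by 1.35 in FBXL5ΔDC livers (edgeR adjusted p = 0.00579). The 3 calls of this list between genotypes at 6 h were 1 to 7 when single libraries were left out, 7 without control 6 h replicate 3 and 1 without any 1 of the other treated libraries, and 4 were called for the interaction without replicate 3, against 0. Without single libraries, the 3 calls in control livers ranged from 0 without control 0 h replicate 2 or 3, and 1 without control 0 h replicate 1, to 6 without control 6 h replicate 2. The list's median log2 difference was 0.35 in FBXL5ΔDC livers and 0.19 in control livers.

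Of 23 liver genes known to respond to STAT3, 10 rose and 1 fell in FBXL5ΔDC livers, and 4 rose in control livers. Junb and Myc, which encode transcription factors of the early response, rose 11.2-fold (log2 3.49, edgeR adjusted p = 0.00147) and 20.9-fold (log2 4.38, edgeR adjusted p = 1.41e-04) in FBXL5ΔDC livers. Myc rose 16.7-fold in control livers (log2 4.06, edgeR adjusted p = 5.52e-04), and its level at 6 h did not differ detectably between genotypes (log2 0.10, edgeR adjusted p = 0.913). The rise of Myc in control livers was 11.8-fold without replicate 3 at 6 h (edgeR adjusted p = 5.73e-04), and the log2 difference between genotypes was 0.61 (edgeR adjusted p = 0.313). Bcl3, which encodes an IκB family co-regulator, rose 5.66-fold in FBXL5ΔDC livers (edgeR adjusted p = 5.36e-04) and 2.85-fold in control livers (edgeR adjusted p = 0.0174), or 1.74-fold in control livers without replicate 3 at 6 h (edgeR adjusted p = 5.28e-04). The 3 fibrinogen chain genes Fga, Fgb and Fgg, typical hepatocyte acute-phase genes named after their values were seen, rose in FBXL5ΔDC livers by 0.68 to 0.87 on the log2 scale (edgeR adjusted p = 0.00635 to 0.0201). Not every gene of the list rose with them: Itih4 had a mean of 1523 CPM in FBXL5ΔDC livers at 6 h and 1556 CPM at 0 h.

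The serum amyloid A gene Saa2, another acute-phase gene, was the list's 1 lower call (log2 -4.66, edgeR adjusted p = 0.0470). It was at 9.46, 6.76 and 5.11 CPM in FBXL5ΔDC livers at 6 h, against 10.7, 495 and 33.2 CPM at 0 h, so 1 untreated library set the difference. No gene of the list was called lower in 9 of the 12 fits that left out 1 library, including the one without that library, FBXL5ΔDC 0 h replicate 2. Its close paralog Saa1 makes its counts uncertain. The list's median log2 difference was 0.68 in FBXL5ΔDC livers and 0.49 in control livers. The 4 calls in control livers became 2 without control 0 h replicate 1 or 2. Between genotypes at 6 h no gene of this list was called with all libraries, and 7 were higher and 1 lower without control 6 h replicate 3, when 7 were also called for the interaction, against 0.

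Among 13 genes of growth hormone and STAT5 signalling, none rose and 4 fell in FBXL5ΔDC livers, and 2 fell in control livers. The receptor gene Ghr was at 202, 187 and 174 CPM in FBXL5ΔDC livers at 6 h, against 322, 382 and 340 CPM at 0 h, and fell by 0.89 on the log2 scale (edgeR adjusted p = 7.95e-04). In control livers Ghr was at 271, 275 and 192 CPM at 6 h, against 286, 300 and 305 CPM at 0 h (log2 -0.27, edgeR adjusted p = 0.259). Elovl3, a fatty acid elongase gene with male-biased expression in mouse liver, fell by 2.77 in FBXL5ΔDC livers (edgeR adjusted p = 0.00111) and by 1.91 in control livers (edgeR adjusted p = 0.0173), where without replicate 3 at 6 h it was not called (log2 -2.09, edgeR adjusted p = 0.0501). Cyp7b1, an oxysterol hydroxylase gene, fell by 1.24 (edgeR adjusted p = 0.0473) and Cyp2d9, a male-biased cytochrome gene with close paralogs, by 0.93 (edgeR adjusted p = 0.0188) in FBXL5ΔDC livers. Bcl6, named after its values were seen, fell in control livers (log2 -1.89, edgeR adjusted p = 0.0295), where the libraries at 6 h and 0 h overlapped and the call was lost without replicate 3 at 6 h (edgeR adjusted p = 0.0817). The 4 calls in FBXL5ΔDC livers were 2 without FBXL5ΔDC 0 h replicate 2, and the 2 in control livers were 0 without control 0 h replicate 2 or control 6 h replicate 1 and 1 without control 0 h replicate 3 or control 6 h replicate 2. Without control 6 h replicate 3, 2 genes of the list rose and none fell in control livers, and 3 were lower in FBXL5ΔDC than in control livers at 6 h, and 3 were called for the interaction, against 0 and 0 with all libraries. The list's median log2 difference was -0.35 in FBXL5ΔDC livers and 0.14 in control livers.

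**Figure D4:**
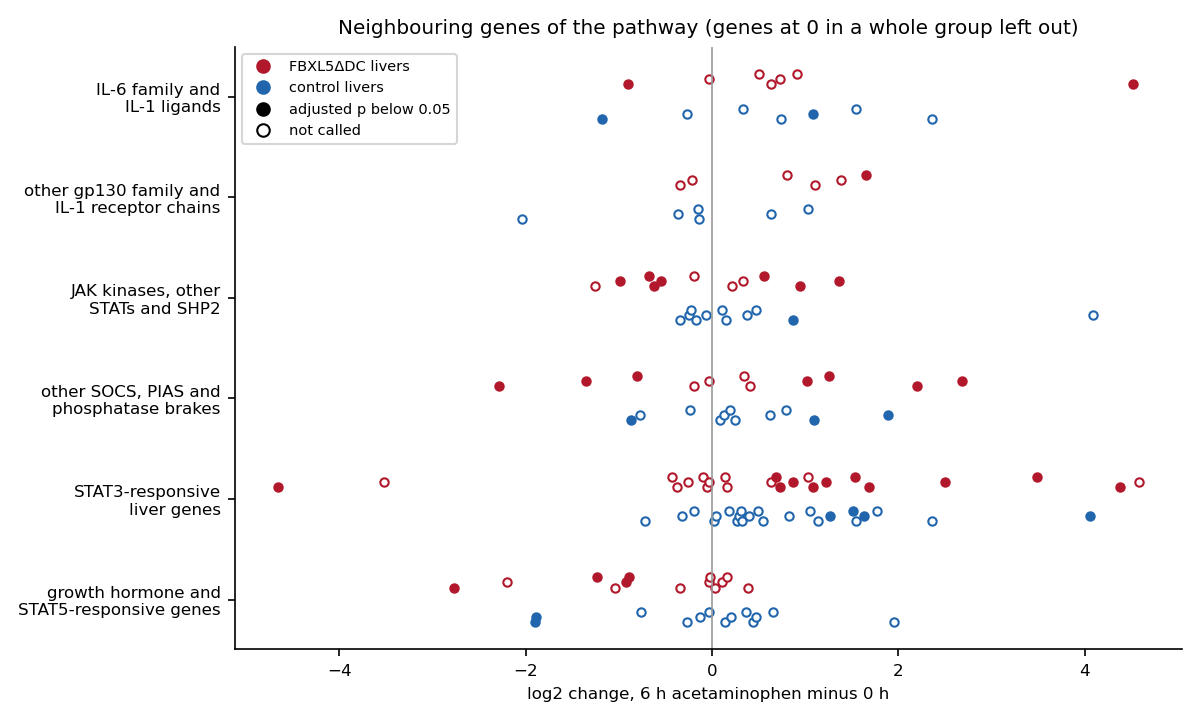
Log2 change from 0 h to 6 h for tested genes of 6 neighbouring lists, 1 point per gene, in FBXL5ΔDC livers (red, upper) and control livers (blue, lower); filled points have an edgeR adjusted p below 0.05, genes at 0 in a whole group are left out, and points are shifted vertically for legibility. Myc lies at 4.38 and 4.06, Ptpn2 at 2.68 and 1.09 and Pias3 at -2.29 and -0.87 in FBXL5ΔDC and control livers.

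Markers of other liver cells moved in the same comparisons. The 5 hepatocyte markers in the table, of which 1 rose in FBXL5ΔDC livers, summed to 101868 to 134675 CPM in FBXL5ΔDC livers and 62297 to 110282 CPM in control livers at 6 h, with replicate 3 the highest of the control livers. At 0 h they summed to 73823 to 83582 CPM in FBXL5ΔDC livers and 68504 to 76654 CPM in control livers. Of 6 sinusoidal endothelial markers, 5 rose in FBXL5ΔDC livers after acetaminophen, and 2, the scavenger receptor genes Stab1 and Stab2, named after their values were seen, were higher in FBXL5ΔDC than in control livers at 6 h (log2 0.98 and 1.02, edgeR adjusted p = 0.0203 and 0.0147). Their log2 differences were 1.17 and 1.27 without control 6 h replicate 3 (edgeR adjusted p = 0.00105 and 1.64e-04). Their summed level was 246 to 333 CPM in FBXL5ΔDC livers and 130 to 201 CPM in control livers at 6 h, and 122 to 153 and 119 to 145 CPM in FBXL5ΔDC and control livers at 0 h. Of 6 stellate cell and fibroblast markers, 3 rose in FBXL5ΔDC livers, with summed levels of 173 to 214 CPM in FBXL5ΔDC livers and 101 to 156 CPM in control livers at 6 h, and 54.1 to 97.9 and 79.6 to 121 CPM at 0 h. Of 6 cholangiocyte markers, 5 rose in FBXL5ΔDC livers, with 68.4 to 264 CPM in FBXL5ΔDC livers and 27.3 to 82.0 CPM in control livers at 6 h, and 20.1 to 25.6 and 15.0 to 23.5 CPM at 0 h. Sox9 weighed heavily in that sum, at a mean of 111 CPM in FBXL5ΔDC livers and 25.9 CPM in control livers at 6 h. Krt19, Krt7 and Epcam were at means of 3.15, 0.878 and 2.27 CPM in FBXL5ΔDC livers at 6 h. These markers are named after their values were seen. In each of the hepatocyte, endothelial, stellate and cholangiocyte lists control 6 h replicate 3 had the highest sum of its group.

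Markers of neutrophils, monocytes, T and NK cells and dendritic cells were low in every library. The 6 neutrophil markers summed to 3.40 to 9.99 CPM in FBXL5ΔDC livers and 2.66 to 3.57 CPM in control livers at 6 h, and to 0.730 to 1.87 and 0.954 to 1.53 CPM in FBXL5ΔDC and control livers at 0 h, where Mmp8 was at 0 in both groups and Cxcr2 in the control one. Of these 4 rose in FBXL5ΔDC livers and 1 in control livers. The 6 monocyte markers summed to 7.02 to 8.18 CPM in FBXL5ΔDC livers and 4.40 to 8.73 CPM in control livers at 6 h, and to at most 3.001 CPM in any untreated liver. Most of that sum at 6 h was Plac8, 1 of 3 markers named here after their values were seen, at a mean of 6.81 CPM in FBXL5ΔDC livers and 4.41 CPM in control livers. It was the 1 monocyte marker that rose in FBXL5ΔDC livers, while the list's median log2 difference there was -0.22, with Ccr2 at a mean of 0.258 CPM at 6 h, against 0.471 CPM at 0 h. In control livers 2 rose, Plac8 and F13a1, with a list median of 1.28, and between genotypes at 6 h the median was -1.63. Kupffer cell markers were more abundant, and 1 of 6 rose in each genotype, a share close to that of all tested genes in FBXL5ΔDC livers. They summed to 121 to 219 CPM in FBXL5ΔDC livers and 114 to 143 CPM in control livers at 6 h, and to 107 to 141 and 88.6 to 110 CPM in FBXL5ΔDC and control livers at 0 h. The 6 T and NK cell markers, 5 of them tested, had no call and summed to 0.283 to 1.49 CPM over all libraries. Dendritic cells are those that the Cd11c promoter marks first of all, though not alone. Their markers had no call among 7 genes and summed to 4.41 to 7.63 CPM over all libraries, with Xcr1 at 0 in FBXL5ΔDC livers at 6 h and Cd209a at 0 in control livers at 0 h. The part of these markers, and of the share of mitochondrial counts, in the differences of the receptor and SOCS genes was not tested.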

How the data were processed

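Whole-liver RNA of 12 libraries was analysed, 3 in each of 4 groups taken from the labels. The submitters' processing notes name Trim Galore 0.6.6 for trimming, HISAT2 2.2.1 for alignment and the mouse build mm10. The deposited table holds estimated counts per gene, all whole numbers, with gene IDs and symbols. The counting program, its annotation and its use of strand are not given in the sources used here, so genes overlapping on opposite strands may share reads. Of values from 1 to 40, 27.5% were multiples of 4. Whether that share is higher than in plain counts of fragments was not tested.

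The counts were used as deposited. Genes were kept by filterByExpr on the 4 groups, libraries were scaled by TMM (factors 0.855 to 1.14), and 1 robust quasi-likelihood model over all 12 libraries (edgeR 4.0.16, limma 3.58.1, R 4.3.3) gave 5 comparisons, each adjusted by Benjamini-Hochberg over 17585 genes and called at 0.05. Standard errors come from that model. The script was tested on simulated data. Log2 CPM used a prior count of 2, and RPKM used exon lengths of GENCODE vM21 (GRCm38), which holds 98.1% of the table's IDs. Promoter sequences are from RefSeq on GRCm38.p6. A group mean of 12 counts was taken as the limit of detection. DESeq2 1.42.0, other scalings, no filter, fits on the compared groups alone, a replicate block, counts divided by 4 and each library left out were tried.

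Same-numbered samples of different groups did not deviate together (correlations of -0.0614 to 0.0294). No pairing by number was thus seen, though these values cannot exclude one. No libraries were copies of each other. All 10 genes were named, as were, with items not reported here left out, up to 4 genes of each list with the largest called change in FBXL5ΔDC livers, the tested ligands, and the 3 genes nearest to Socs3, Stat3 and Il6st with a mean of at least 1 CPM. The members and lists were chosen with earlier results of these data known.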

Additional observations from a re-analysis of the deposited data

How the results depend on the processing

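Of the 10 genes, Il1r1, Il6st, Osmr, Socs1, Socs3 and Stat3 kept their call in FBXL5ΔDC livers under all 19 alternatives run, and Il6ra kept it in 12 of 19. The call of Socs3 between genotypes at 6 h held in 15 of 19 (edgeR or DESeq2 adjusted p = 1.11e-06 to 0.136). In control livers, Cish was called in 13, Socs3 and Stat3 in 12 each, Socs1 in 8 and Il6st in 4 of 19. When single libraries were left out, the number of the 10 genes called was 6 to 7 in FBXL5ΔDC livers, 0 to 5 in control livers, 0 to 7 between genotypes at 6 h, 0 to 0 at 0 h and 0 to 6 for the interaction. Over all genes those ranges were 3823 to 6305, 763 to 2170, 250 to 4249, 0 to 0 and 1 to 2533.

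In control livers, against 5 of the 10 genes with all libraries, 0 were called with no filter on low counts, 0 in a fit on the compared groups alone and 2 with a replicate block. Between genotypes at 6 h, against 1, DESeq2 called 3 (Socs3, Osmr and Cish) and the fit on the compared groups alone 0. DESeq2 called 1 of the 10 for the interaction. Over all genes, DESeq2 and the fit on the compared groups alone called 2883 and 402 genes in control livers, against 1857. They called 2120 and 6 between genotypes at 6 h, against 1031, and 14 and 3 at 0 h, against 0. For the interaction, against 51, DESeq2 called 689, upper-quartile scaling 20, counts divided by 4 gave 32, and the replicate block gave 28. With upper-quartile scaling 50.7% of the calls in control livers were lower, against 39.8%, and with DESeq2 65.6% of the calls between genotypes at 6 h were lower, against 76.9%.

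The direction of 8 uncalled differences turned when single libraries were left out. For Socs2 the log2 difference ran from -0.12 to 0.60 in FBXL5ΔDC livers, -0.64 to 1.11 in control livers, -0.39 to 0.37 between genotypes at 6 h, -0.98 to 0.71 at 0 h and -0.80 to 0.95 for the interaction. It ran from -0.39 to 0.093 for Il1r1 at 0 h, -0.45 to 0.25 for Cish in FBXL5ΔDC livers and -0.18 to 0.45 for Il6ra in control livers. No other alternative turned a direction. No pairing by sample number was seen, and with the replicate block Stat3, Il6st and Socs1 were not called in control livers (edgeR adjusted p = 0.0546, 0.0695 and 0.0644). The cause of these changes was not tested. With 3 libraries a group, and with single libraries that stand apart, absence of a call does not show absence of a difference, and depth limits mainly Socs1 at 0 h and the scarce ligands.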
